A study of Mus musculus with 8 samples.

Results

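The genes described here are 10 regulators of energy metabolism in the heart: the estrogen-related receptors Esrra, Esrrb and Esrrg, the peroxisome proliferator-activated receptor Ppara, the coactivators Ppargc1a and Ppargc1b, the transcription factors Nrf1 and Gabpa, the mitochondrial DNA factor Tfam, and the Krüppel-like factor Klf15. They were taken by symbol from the deposited table of read counts, in which all 10 were found among 24516 genes. Bulk RNA sequencing had been done on hearts of mice at postnatal day 40. The mice carried a CRISPR/Cas9 deletion of a conserved enhancer of Actn2, the gene for the Z-disc protein alpha-actinin 2, on no allele (wild type, n = 2), on 1 allele (heterozygous, n = 3) or on both alleles (homozygous, n = 3). The hearts came from the same litter, and no strain, sex or number of founder lines is given in the labels. The deletion is in the germline, so it was present in every cell type of the heart. The comparisons ask whether the regulators' RNA differed between each deletion genotype and wild type, and between the deletion genotypes.

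Estrogen-related receptors (ERRs) are orphan nuclear receptors that bind genes of the citric acid cycle, the respiratory chain and fatty acid oxidation. PPARα, the product of Ppara, pairs with a retinoid X receptor and responds to fatty acids by switching on genes of their uptake and oxidation. PGC-1α and PGC-1β, the products of Ppargc1a and Ppargc1b, bind no DNA themselves and act as coactivators of these receptors and of NRF1. NRF1 and the ETS factor GABPα bind many promoters of nuclear genes for respiratory chain subunits, and TFAM packages mitochondrial DNA and starts its transcription. KLF15 controls genes of branched-chain amino acid breakdown and lipid use, and its own RNA follows the circadian clock and glucocorticoids. In the heart this network rises after birth, when the muscle turns from glucose to fatty acids.

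Because several of these factors are known to act on each other's genes, their promoters were searched for the factors' own binding letters. RefSeq promoter windows of the GRCm38.p6 build, 300 bases each from 250 before to 50 after a start, were matched for 9 of the 10 regulators (14 windows). Both strands were searched, and capitals mark the match. The letters of GABP, CCGGAAG, were found in Gabpa and in Tfam, and in 8.86% of all 32851 windows. The palindromic letters of NRF1, in capitals in the Ppara stretch, were found in Ppara and in 0.971% of all windows. The E-box letters CACGTG, which clock factors can bind, were found 3 times in Klf15 and in 7.15% of all windows. None of the 14 windows held the ERR letters AAGGTCA (4.72% of all) or the PPAR letters, a pair of AGGTCA in a row with 1 base between (0.0396% of all). A match is a description of the letters and not a measured site. The matched stretches follow, each written 5′ to 3′ on its gene's strand; in Gabpa the letters lie on the other strand.
Gabpa, chr16:84835020-84835049, plus strand: gagggtaagtgCTTCCGGgtccctcagcta
Tfam, chr10:71238073-71238102, minus strand: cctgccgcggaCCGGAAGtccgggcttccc
Ppara, chr15:85735735-85735764, plus strand: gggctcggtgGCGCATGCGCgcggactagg
Klf15, chr6:90462336-90462365, plus strand: ctcccgaggtccCACGTGgtctgcacttcg
Klf15, chr6:90462392-90462421, plus strand: tagaacccgtctCACGTGcgcatcggagga
Klf15, chr6:90462561-90462590, plus strand: cgcccgcggcgtCACGTGagcggccggaga

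Libraries held 22230090 to 55902737 counts. Levels below are counts scaled to a library of 1e6 (CPM) after TMM scaling, and differences are log2 fold changes with the standard error (SE) of an edgeR quasi-likelihood fit over 15075 genes, whose p-values were adjusted by Benjamini-Hochberg with a threshold of 0.05. Where a pair of log2 values stands together, the heterozygous difference comes before the homozygous one. Actn2 itself was at 2187 and 2703 CPM in wild type, 1694, 1546 and 1638 CPM in heterozygous hearts and 2115, 1611 and 1791 CPM in homozygous hearts. Its fall passed the test in heterozygous hearts (log2 -0.59, SE 0.16, adjusted p = 0.0193) and not in homozygous hearts (log2 -0.41, SE 0.16, adjusted p = 0.0771). The heterozygous fall did not pass without wild type 2 (-0.40, adjusted p = 0.128), without heterozygous 2 (-0.55, adjusted p = 0.0725), without heterozygous 3 (-0.59, adjusted p = 0.0595) or after the gene property correction described below (-0.28, adjusted p = 0.212). Fitting those 2 genotypes alone, or adding a replicate block, likewise ended this call. In homozygous hearts the correction took the difference to -0.08 (adjusted p = 0.752), and it passed in 2 of the 17 alternatives, DESeq2 and the fit that left out wild type 1 (-0.55). Wild type 2 stood apart from the other libraries: on the first principal component, which held 35.9% of the variance, it lay at -61.4, wild type 1 at -10.8 and the 6 deletion libraries at 7.87 to 14.2. For the regulators, Actn2 and the list genes named by smallest p, values without wild type 2 are therefore given where they change a call. Other genes, the cell type markers among them, were not followed in that fit. All heart muscle markers checked (10 of 10, among them Myh6, Tnnt2 and Ryr2) were detected, with summed levels of 83010 and 95300 CPM in wild type and 67980 to 77460 CPM in the deletion libraries. The largest part of this sum was Myh6, which did not pass the test, and single markers moved in both directions. Of the 10, 2 rose and 3 fell in heterozygous hearts, and 2 rose and 2 fell in homozygous hearts. Ryr2 and Pln rose and Tnni3 and Myl2 fell in both comparisons, while Myl3 fell past the threshold in heterozygous hearts only. In bulk heart RNA, fewer cells of a type and less RNA per cell cannot be told apart.

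Esrrg and Esrrb rose in both deletion genotypes, while Esrra did not pass the test. Esrrg, which encodes ERRγ (chromosome 1, 187608791 to 188214885, mm10, ENSMUSG00000026610.13), was at 26.9 and 26.6 CPM in wild type, 61.1, 77.6 and 72.6 CPM in heterozygous hearts and 67.8, 65.4 and 76.0 CPM in homozygous hearts. The lowest deletion library lay above the higher wild-type library in both genotypes. Its means were 26.7 ± 0.207, 70.4 ± 8.48 and 69.7 ± 5.58 CPM (SD, n = 2, 3 and 3). The difference was 2.64-fold in heterozygous hearts (log2 1.40, SE 0.14, adjusted p = 2e-04) and 2.61-fold in homozygous hearts (log2 1.38, SE 0.14, adjusted p = 0.000237). These are the largest fold changes among the 10 regulators in this fit. After the correction below those of Ppargc1b, Esrrb and Ppara were larger, and without wild type 1 those of Ppargc1b. Without wild type 2 the heterozygous difference of Ppargc1a was larger (log2 1.52 beside 1.42 for Esrrg). After a correction for gene properties (GC content and the lengths of the transcript and of its 3′ UTR) the differences were smaller, at log2 0.83 and 0.84, with adjusted p = 0.00511 and 0.00443.

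Esrrb, which encodes ERRβ, a receptor also known from stem cells (chromosome 12, 86361117 to 86521628, ENSMUSG00000021255.17), was at 20.3 and 21.1 CPM in wild type. It was at 36.9, 41.1 and 42.4 CPM in heterozygous hearts and at 42.0, 35.9 and 44.0 CPM in homozygous hearts. As for Esrrg, no deletion library reached down to wild type, and the means were 20.7 ± 0.531, 40.2 ± 2.88 and 40.6 ± 4.19 CPM (SD, n = 2, 3 and 3). Esrrb was 1.94-fold higher in heterozygous hearts (log2 0.96, SE 0.14, adjusted p = 0.00105) and 1.96-fold higher in homozygous hearts (log2 0.97, SE 0.14, adjusted p = 0.00102). Esrrb and Esrrg passed the test under all 17 alternative analyses in both comparisons, and Esrrb stayed between log2 0.91 and 1.11 throughout.

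Esrra, which encodes ERRα, the most abundant of the 3 receptors per length (chromosome 19, 6910977 to 6921813, ENSMUSG00000024955.14), was at 208 and 255 CPM in wild type, 193, 204 and 224 CPM in heterozygous hearts and 222, 216 and 239 CPM in homozygous hearts. All genotypes overlapped. The log2 difference was -0.16 (SE 0.13, 95% interval -0.46 to 0.14, adjusted p = 0.405) in heterozygous hearts and -0.04 (SE 0.13, 95% interval -0.33 to 0.26, adjusted p = 0.87) in homozygous hearts. The interval leaves out a change of the size seen for Esrrb or Esrrg under this fit. The sign turned without wild type 2 (0.03 and 0.15) and after the correction (0.31 and 0.39, adjusted p = 0.139 and 0.0656). With both together Esrra passed the test in homozygous hearts at log2 0.54 (adjusted p = 0.0475). Exons of Esrra overlap those of Trmt112 on the other strand by 73 bases (3.3% of Esrra's exons), and the strand setting of the counting is not given in the sources used here.

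**Figure D1:**
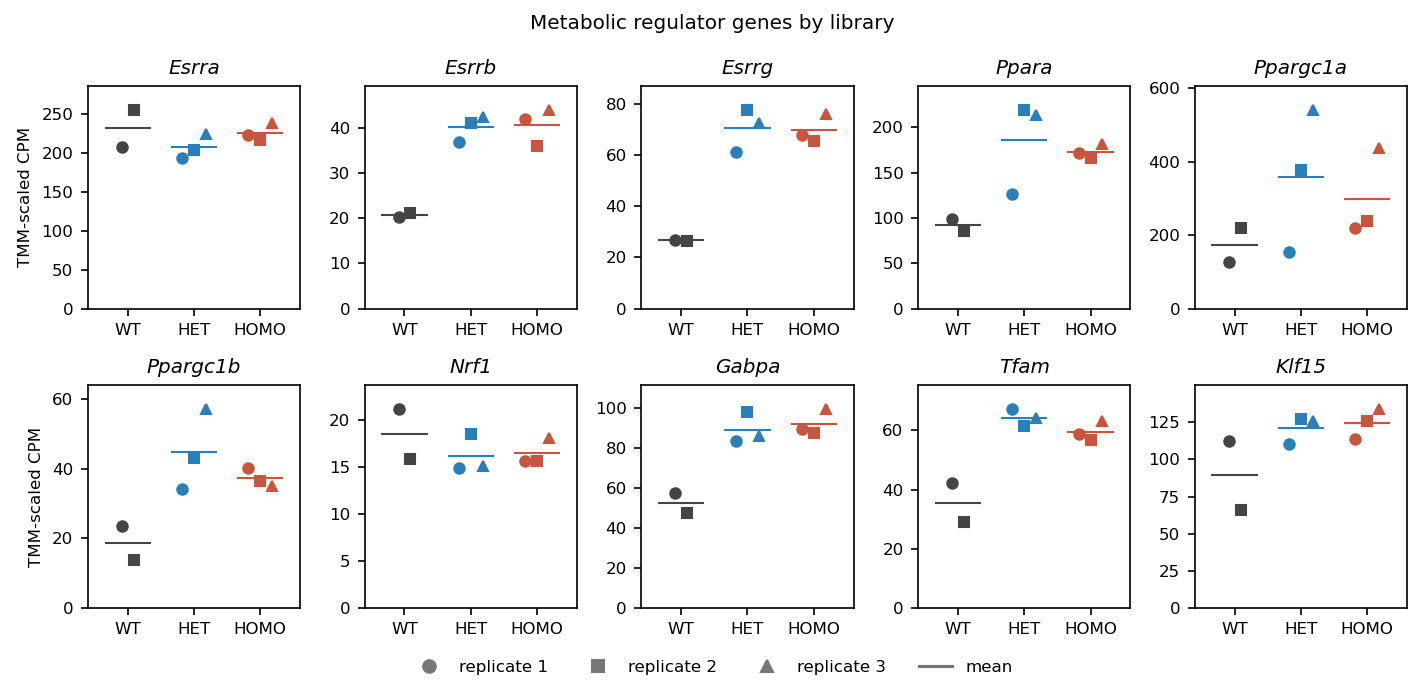
Level of each of the 10 regulators in every library, in TMM-scaled CPM on axes that start at 0, by genotype, with 1 point per library (its shape is the replicate number) and a line at the mean. Esrrb, Esrrg, Ppara, Ppargc1b, Tfam and Gabpa have all 6 deletion libraries above both wild-type libraries, while Esrra and Nrf1 overlap and Ppargc1a ranges from 128 to 541 CPM.

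Ppara, the fatty acid sensor (chromosome 15, 85734983 to 85802819, ENSMUSG00000022383.13), also rose in both deletion genotypes. It was at 99.1 and 85.8 CPM in wild type, 127, 219 and 213 CPM in heterozygous hearts and 171, 166 and 181 CPM in homozygous hearts. No deletion library overlapped wild type, although heterozygous 1 lay well below the other deletion libraries. The means were 92.4 ± 9.34, 186 ± 51.8 and 173 ± 7.52 CPM (SD, n = 2, 3 and 3). Ppara was 2.02-fold higher in heterozygous hearts (log2 1.01, SE 0.21, adjusted p = 0.00674) and 1.87-fold higher in homozygous hearts (log2 0.90, SE 0.21, adjusted p = 0.0113). Neither passed without wild type 2, at log2 0.94 (adjusted p = 0.0633) and 0.84 (adjusted p = 0.0952), and both passed after the correction for gene properties, at 1.06 and 0.94. The window with the NRF1 letters shown above belongs to this gene.

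The 2 PGC-1 coactivators differed in how much their libraries spread. Ppargc1b (chromosome 18, 61298136 to 61400431, ENSMUSG00000033871.14) was at 23.6 and 13.7 CPM in wild type, 34.3, 43.1 and 57.2 CPM in heterozygous hearts and 40.3, 36.4 and 35.1 CPM in homozygous hearts, with no overlap. It was 2.41-fold higher in heterozygous hearts (log2 1.27, SE 0.26, adjusted p = 0.00589) and 2.0-fold higher in homozygous hearts (log2 1.0, SE 0.25, adjusted p = 0.0164). The wild-type libraries were far apart for this gene, and without wild type 2 the difference was log2 0.96 (adjusted p = 0.0311) in heterozygous hearts and log2 0.70 (adjusted p = 0.0979) in homozygous hearts. Without wild type 1 the differences were 1.72 and 1.45, and after the correction for gene properties they were 1.56 (adjusted p = 0.00527) and 1.25 (adjusted p = 0.0107).

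Ppargc1a, known for its fast response to cold, exercise and fasting (chromosome 5, 51454250 to 51567726, ENSMUSG00000029167.13), was at 128 and 220.0 CPM in wild type, 155, 378 and 541 CPM in heterozygous hearts and 220.4, 237 and 436 CPM in homozygous hearts. Heterozygous 1 fell between the wild-type libraries, and homozygous 1 lay level with wild type 2. Replicate 1 was the lowest library in each genotype. The coefficient of variation was 37.5% in wild type, 54.1% in heterozygous and 40.3% in homozygous hearts, the highest of the 10 regulators in both deletion genotypes and level with Ppargc1b in wild type. Ppargc1a did not pass the test, at log2 1.04 (SE 0.55, 95% interval -0.25 to 2.33, adjusted p = 0.204) in heterozygous hearts and log2 0.78 (SE 0.55, 95% interval -0.50 to 2.05, adjusted p = 0.334) in homozygous hearts. The intervals are wide enough to hold both no change and a rise larger than that of Esrrg. Without heterozygous 1 the heterozygous difference passed at log2 1.43 (adjusted p = 0.0295). Without wild type 1 the homozygous difference was log2 0.44, and without wild type 2 it was 1.25, neither past the threshold. After the correction the differences were 0.34 (adjusted p = 0.753) and 0.09 (adjusted p = 0.936).

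Of the 3 factors that link the nucleus to the mitochondrial genome, Gabpa and Tfam rose and Nrf1 did not pass the test. Gabpa, the DNA-binding subunit of GABP (chromosome 16, 84834925 to 84863779, ENSMUSG00000008976.16), was at 57.5 and 47.8 CPM in wild type, 83.7, 98.3 and 86.1 CPM in heterozygous hearts and 89.5, 87.9 and 99.7 CPM in homozygous hearts. Every deletion library was above wild type. The rise was 1.70-fold in heterozygous hearts (log2 0.76, SE 0.13, adjusted p = 0.00274) and 1.76-fold in homozygous hearts (log2 0.81, SE 0.13, adjusted p = 0.00224). It was lost after the correction for gene properties, at log2 0.19 (adjusted p = 0.316) and 0.26 (adjusted p = 0.157). Gabpa starts 700 bases from Atp5j on the other strand, and their exons share 182 bases (3.6% of Gabpa's exons). Atp5j, a subunit of ATP synthase, did not pass the test, at log2 -0.31 (adjusted p = 0.169) in heterozygous and -0.27 (adjusted p = 0.228) in homozygous hearts.

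Tfam (chromosome 10, 71225464 to 71238280, ENSMUSG00000003923.14) was at 42.2 and 28.9 CPM in wild type, 67.2, 61.6 and 64.1 CPM in heterozygous hearts and 58.7, 56.7 and 63.0 CPM in homozygous hearts, again with no overlap. The means were 35.6 ± 9.42, 64.3 ± 2.79 and 59.5 ± 3.23 CPM (SD, n = 2, 3 and 3). Tfam was 1.81-fold higher in heterozygous hearts (log2 0.85, SE 0.16, adjusted p = 0.00359) and 1.67-fold higher in homozygous hearts (log2 0.74, SE 0.16, adjusted p = 0.00705). After the correction the heterozygous rise passed at log2 0.51 (adjusted p = 0.0434) and the homozygous one did not, at log2 0.42 (adjusted p = 0.0766). Gabpa and Tfam are the regulators whose windows hold the GABP letters printed above.

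Nrf1 (chromosome 6, 30047988 to 30153458, ENSMUSG00000058440.14), the nuclear respiratory factor and not the stress factor Nfe2l1 that shares this alias, was at 21.1 and 15.9 CPM in wild type, 14.9, 18.4 and 15.0 CPM in heterozygous hearts and 15.7, 15.6 and 18 CPM in homozygous hearts. The genotypes overlapped. The log2 difference was -0.20 (SE 0.18, 95% interval -0.59 to 0.20, adjusted p = 0.448) in heterozygous and -0.17 (SE 0.18, 95% interval -0.57 to 0.23, adjusted p = 0.513) in homozygous hearts, and it turned to 0.03 and 0.06 without wild type 1.

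Klf15 (chromosome 6, 90462576 to 90475238, ENSMUSG00000030087.11) was at 113 and 66.2 CPM in wild type, 110.3, 127 and 126 CPM in heterozygous hearts and 114, 126 and 134 CPM in homozygous hearts. Wild type 1 was level with the deletion libraries and wild type 2 lay far below them. Klf15 did not pass the test, at log2 0.44 (SE 0.20, adjusted p = 0.123) and 0.48 (SE 0.20, adjusted p = 0.0948). Its value depended on which wild-type library was kept. Against wild type 2 alone the differences were log2 0.88 (adjusted p = 0.000943) and 0.92 (adjusted p = 0.000727), and against wild type 1 alone they were 0.13 (adjusted p = 0.582) and 0.18 (adjusted p = 0.464). After the correction for gene properties Klf15 passed in both, at 0.73 (adjusted p = 0.0378) and 0.75 (adjusted p = 0.0325). The 3 E-box matches printed above are in this gene's window.

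Together, 6 of the 10 regulators rose and none fell in homozygous hearts, where 15.3% of all 15075 genes tested rose and 12.4% fell. The same count, 6 rises and no fall, was found in heterozygous hearts, where 15.2% rose and 12.8% fell. At an unadjusted p of 0.05 the counts were 7 higher and 0 lower in each comparison. The median log2 difference of the 10 was 0.79 in homozygous and 0.91 in heterozygous hearts, beside -0.03 for all genes in each. In homozygous hearts 8 of the 10 had all 3 libraries above both wild-type libraries (27.6% of all genes), and in heterozygous hearts 6 of the 10 did (25.7% of all genes). Among the 8, Ppargc1a (220.4 beside 220.0 CPM) and Klf15 (113.6 beside 112.7 CPM) were only just above the higher wild-type library, and neither passed the test. Both comparisons share the same 2 wild-type hearts, so their like counts are not separate evidence. The regulators and the lists below were chosen with earlier results of these data known. The shares of all genes are therefore set beside them as a description only. Leaving out wild type 2 leaves 1 wild-type library. The 6 that rose then ran from log2 0.64 for Tfam to 1.42 for Esrrg in heterozygous hearts. In homozygous hearts they ran from 0.53 for Tfam to 1.41 for Esrrg. Ppara then lost its call in both comparisons and Ppargc1b in homozygous hearts. After the correction 5 regulators rose in homozygous and 6 in heterozygous hearts, where 1167 and 1084 of all 13868 genes rose.

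**Figure D2:**
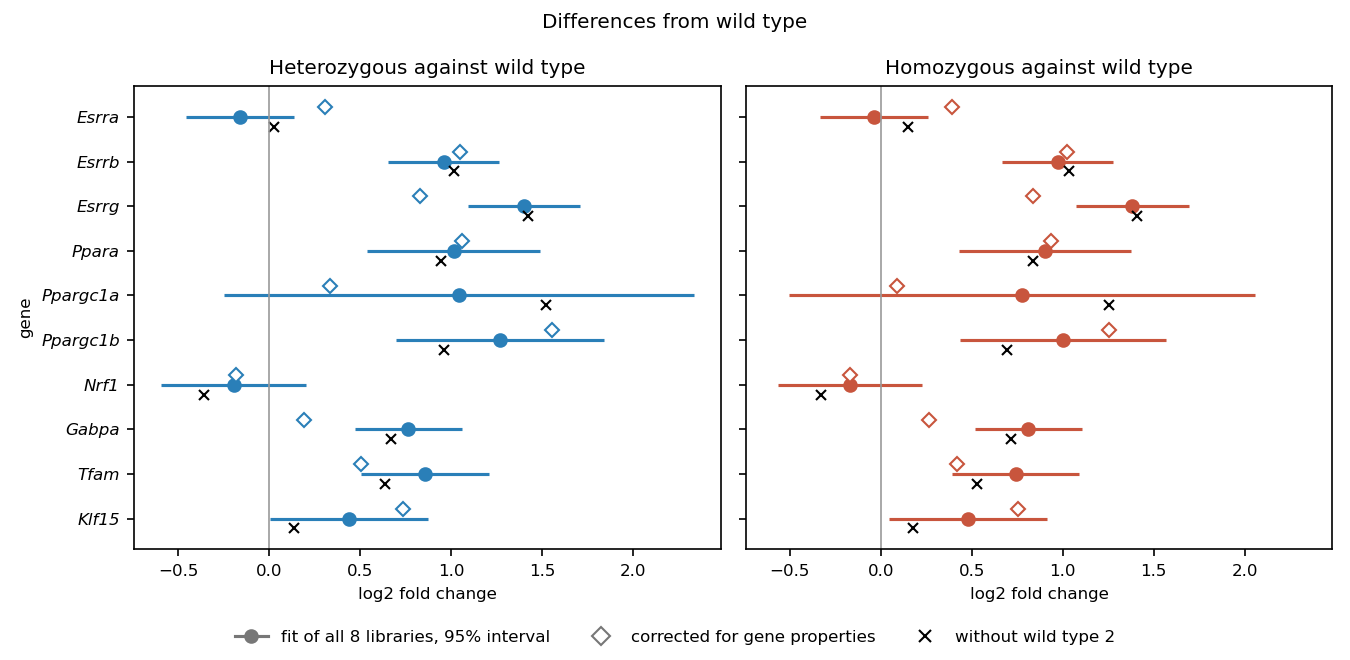
Log2 fold change of each of the 10 regulators against wild type, with its 95% interval, for heterozygous (left) and homozygous hearts (right). Diamonds are the values after the correction for gene properties and crosses those without wild type 2. Esrrg and Gabpa move most toward 0 under the correction among the regulators that passed, Esrrb and Ppara hardly move, and Ppargc1a has the widest interval.

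No regulator passed the test between homozygous and heterozygous hearts. The log2 differences of the 10 ran from -0.27 for Ppargc1b (95% interval -0.75 to 0.22) to 0.12 for Esrra (95% interval -0.14 to 0.39), and the smallest unadjusted p was 0.249. For Esrrg the interval was -0.28 to 0.25 and for Esrrb -0.25 to 0.28, so a difference of the size seen against wild type lies outside it for both. For Ppargc1a, at -1.38 to 0.85, such a difference lies inside. None of the 10 had homozygous libraries that did not overlap the heterozygous ones, beside 6.19% of all genes that lay wholly higher and 5.15% wholly lower. Over the whole table edgeR called 0 of 15075 genes (0%) between the deletion genotypes, with 411 genes (2.73%) at an unadjusted p under 0.05, DESeq2 called 1 higher and 1 lower, and limma-voom called 1 lower.

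To compare levels between genes, CPM were divided by a transcript length in kilobases. For each gene this was its longest annotated transcript with a coding part and a 3′ UTR, whether or not the heart uses it. In wild type Esrra was the highest regulator, at 103 ± 14.9 CPM per kb (SD, n = 2). Klf15 at 36.0 ± 13.3, Ppara at 27.1 ± 2.74 and Ppargc1a at 26.9 ± 10.1 CPM per kb followed and did not differ from each other beyond their spread. Gabpa at 10.6 ± 1.38 and Tfam at 8.53 ± 2.26 CPM per kb overlapped, and Nrf1, Ppargc1b, Esrrg and Esrrb lay close together at 5.16, 5.09, 4.97 and 4.81 CPM per kb. In homozygous hearts Esrra stayed highest at 100.7 ± 5.17, and Ppara, Klf15 and Ppargc1a lay at 50.7 ± 2.20, 50.2 ± 4.11 and 46.1 ± 18.6 CPM per kb. Esrrg, at 13.0 ± 1.04, was then near Tfam at 14.3 ± 0.776 CPM per kb, and Nrf1 was lowest at 4.59 ± 0.385 CPM per kb.

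The share of each gene in the ERR family's RNA did not overlap between wild type and the deletion genotypes on uncorrected values. Esrra made up 90.5% and 92.0% of the summed ERR level per kb in wild type, 81.2%, 79.1% and 81.1% in heterozygous hearts and 81.6%, 82.5% and 81.4% in homozygous hearts. Esrrg made up 4.88% and 4.0% in wild type and 10.4% to 12.6% in the 6 deletion hearts, and Esrrb went from 4.61% and 3.97% to 7.14% to 8.32%. An exact two-sided permutation test gave p = 0.1 for each share in each comparison, the smallest value that 2 against 3 hearts allow and not past 0.05. The gene property correction, which was not applied to the shares, brought the log2 differences of Esrra (0.31 and 0.39) and Esrrg (0.83 and 0.84) nearer to each other. The summed ERR level overlapped between genotypes, at 102.5 and 123.6 CPM per kb in wild type, 106.1 to 123.4 in heterozygous and 117.1 to 130.9 in homozygous hearts. Within the PGC-1 pair Ppargc1b made up 24.6% and 9.91% of the sum in wild type and 12.5% to 28.1% in the deletion hearts, with overlap.

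**Figure D3:**
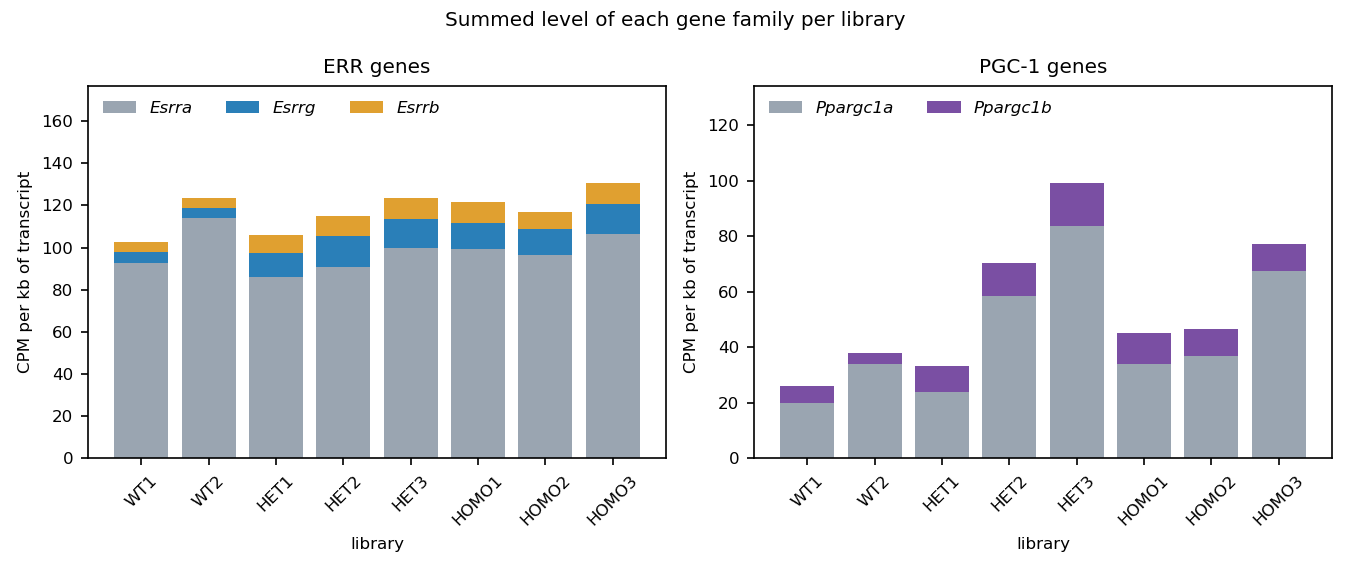
Level per kb of transcript of the 3 ERR genes and of the 2 PGC-1 genes in every library, as stacked bars from 0 in CPM per kb. The summed ERR level overlaps between genotypes while the Esrrb and Esrrg parts are larger in all 6 deletion libraries, and the PGC-1 sum varies most in the heterozygous group, from 33.4 to 99.4 CPM per kb.

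The regulators that rose do not share one set of transcript properties. Esrrg, Gabpa and Tfam have long 3′ UTRs (3745, 3176 and 3095 bases, percentiles 90.5, 86.1 and 85.3 among the genes tested) and transcripts low in GC (42.5%, 41.4% and 44.9%). Ppargc1a is of the same kind, with 3930 bases and 41.7% GC. Esrrb, Ppara and Ppargc1b are not, with 3′ UTRs of 2563, 1561 and 547 bases and GC of 54.9%, 51.5% and 57.8%. The median 3′ UTR was 2172 bases for the 10 regulators and 1136 bases for all genes. The correction, which removes each library's trend on GC content and on both lengths, lowered the differences of Esrrg, Gabpa, Tfam and Ppargc1a and raised those of Ppargc1b, Klf15 and Esrra in both comparisons. Over all genes it took the calls from 4180 to 1950 in homozygous hearts and from 4219 to 1850 in heterozygous hearts. It was fitted on the 13868 genes with all 3 properties (92% of those tested). The part of these properties in the regulators' values was not tested further.

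The receptors that pair or compete with ERR and PPAR numbered 7. In homozygous hearts 2 of 7 rose and none fell (median log2 0.36), and in heterozygous hearts 1 of 7 rose and none fell (median 0.06). For this and the following lists, the shares of all genes were 15.3% higher and 12.4% lower in homozygous hearts. In heterozygous hearts they were 15.2% higher and 12.8% lower. These shares belong to the fit of all 8 libraries without the correction. With the correction, 1167 of 13868 genes rose and 783 fell in homozygous hearts, and 1084 rose and 766 fell in heterozygous hearts. Rxra, a retinoid X receptor and partner of PPARα, was at 78.5 and 68.2 CPM in wild type, 76.0, 73.3 and 80.2 CPM in heterozygous hearts and 98.8, 96.8 and 97.3 CPM in homozygous hearts. It rose in homozygous hearts (log2 0.41, adjusted p = 0.0215) and was at log2 0.06 (adjusted p = 0.725) in heterozygous hearts. Leaving out wild type 2 took the homozygous rise to 0.35 (adjusted p = 0.0888), and it was also lost when any of the 3 homozygous libraries was left out. The thyroid hormone receptor Thrb rose by log2 0.47 in heterozygous (adjusted p = 0.0345) and 0.44 in homozygous hearts (adjusted p = 0.0447), and turned to -0.10 and -0.11 after the correction. Its call was lost in both comparisons without wild type 1 (0.33, adjusted p = 0.129, and 0.30, adjusted p = 0.163) and when any of several deletion libraries was left out. Over the list, 3 of 7 in homozygous and 2 of 7 in heterozygous hearts were called without wild type 1. None was called in homozygous hearts without any of their own libraries in turn, or in heterozygous hearts without any of theirs.

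A larger count rose among coregulators. Of 18 coactivators, corepressors and GABP partners, 11 rose and 1 fell in each comparison, with a median log2 of 0.53 in each. Nrip1, a corepressor also called RIP140 that opposes PGC-1 at ERR and PPAR genes, was at 4.67 and 5.16 CPM in wild type, 24.7, 22.1 and 19.1 CPM in heterozygous hearts and 26.9, 23.0 and 21.6 CPM in homozygous hearts. Its rise (log2 2.16 and 2.28) was above that of every one of the 10 regulators. Ncoa2, a coactivator of nuclear receptors, went from 39.2 and 34.1 CPM in wild type to 68.7, 89.7 and 91.4 CPM and 92.8, 94.0 and 97.1 CPM (log2 1.19 and 1.37). Both passed under all 17 alternatives, at no less than 1.5 for Nrip1 and 0.73 for Ncoa2. After the correction 3 coregulators rose and none fell in heterozygous hearts, and 4 rose and 1 fell in homozygous hearts.

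Of 13 genes that act upstream of Ppargc1a, 6 rose and 1 fell in homozygous hearts (median log2 0.52), and 6 rose and 2 fell in heterozygous hearts (median 0.48). Prkaa2, the main catalytic subunit of AMP-activated kinase in muscle, was at 81.7 and 62.6 CPM in wild type, 217, 258 and 242 CPM in heterozygous hearts and 271, 267 and 269.6 CPM in homozygous hearts. Its rise (log2 1.73 and 1.90) passed under all 17 alternatives and was 0.93 and 1.14 after the correction. Crtc2, a coactivator of CREB, fell from 36.4 and 42.9 CPM to 22.6, 24.1 and 23.3 CPM and 22.5, 25.4 and 25.8 CPM (log2 -0.77 and -0.69), and the fall was lost after the correction (-0.39, adjusted p = 0.076, and -0.33, adjusted p = 0.121). After the correction 1 gene rose and 1 fell in each comparison. Without heterozygous 2 the number called in heterozygous hearts was 5.

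Lists of genes that these regulators are known to switch on were counted next, against the same shares of all genes. Of 25 fatty acid genes under PPAR control, 4 rose and 1 fell in homozygous hearts (median log2 0.01), and 3 rose and 3 fell in heterozygous hearts (median -0.12). Vldlr, which takes up triglyceride-rich lipoproteins, was at 449.6 and 319.5 CPM in wild type, 680, 729 and 779 CPM in heterozygous hearts and 826, 799 and 923 CPM in homozygous hearts (log2 0.92 and 1.14). The corrected values of Vldlr were 0.27 (adjusted p = 0.196) and 0.51 (adjusted p = 0.0289). Hadhb, a subunit of the trifunctional protein of fatty acid oxidation, went from 1268 and 1099 CPM to 1921, 1828 and 1682 CPM and 1904, 1639 and 1950.3 CPM (log2 0.61 and 0.63), and was at 0.55 and 0.61 after the correction. The number called was 11 in heterozygous and 9 in homozygous hearts without wild type 1, and 3 in each without wild type 2, without heterozygous 2 or without heterozygous 3. It was also 3 in homozygous hearts without homozygous 2 or 3.

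Of 20 genes of oxidative metabolism under ERR control, 3 rose and 6 fell in homozygous hearts (median log2 -0.28), and 2 rose and 7 fell in heterozygous hearts (median -0.30). After the correction 3 rose in homozygous and 1 in heterozygous hearts, and none fell. Ndufs1, a complex I subunit, rose from 534 and 452 CPM to 806, 851 and 747 CPM in heterozygous and 869, 787 and 882 CPM in homozygous hearts (log2 0.70 and 0.78), and passed after the correction at 0.59 and 0.74. Uqcrc1, a complex III subunit, fell from 2014 and 2316 CPM to 1142, 1055 and 1269 CPM and 1463, 1189 and 1360.1 CPM (log2 -0.91 and -0.69), and did not pass after the correction, at -0.38 (adjusted p = 0.0929) and -0.16 (adjusted p = 0.488). Without wild type 2 the number called was 4 in heterozygous and 2 in homozygous hearts, and without wild type 1 it was 15 in each. In homozygous hearts it was 4 without homozygous 2 and 5 without homozygous 1 or 3.

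Respiratory genes under NRF1 or GABP control had the lowest median of the 8 pathway lists in both comparisons. Of 17 tested, 1 rose and 6 fell in homozygous hearts (median log2 -0.43), and 2 rose and 6 fell in heterozygous hearts (median -0.37), in the same hearts in which Gabpa was higher and Nrf1 did not pass. The mitochondrial import receptor Tomm70a rose in both comparisons, at 66.3 and 52.9 CPM in wild type, 159, 141 and 152 CPM in heterozygous and 141, 142 and 154 CPM in homozygous hearts (log2 1.34 and 1.29, and 0.67 and 0.64 after the correction). The other rise, in heterozygous hearts, was that of Sdhd, a subunit of complex II (log2 0.47, adjusted p = 0.0428). Cox6a1, a cytochrome oxidase subunit, fell from 146 and 164 CPM to 115, 93.0 and 107 CPM and 102, 100.6 and 93.6 CPM (log2 -0.56 and -0.65). After the correction it was at 0.19 and 0.11, and without wild type 2 its heterozygous fall did not pass (-0.44, adjusted p = 0.0516). The corrected counts were 2 rises and 1 fall in heterozygous and 2 rises and no fall in homozygous hearts. Without wild type 2 the number called was 2 in each comparison, and without wild type 1 it was 13 in each. It was 3 or 4 in homozygous hearts without any of the 3 homozygous libraries in turn. In heterozygous hearts it was 4 without heterozygous 3, and 5 without heterozygous 2 or any homozygous library.

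The proteins that copy and read mitochondrial DNA beside TFAM were split. Of 15, 5 rose and 1 fell in homozygous hearts (median log2 0.05), and 2 rose and 1 fell in heterozygous hearts (median 0.15). Tfb2m, the partner of TFAM at mitochondrial promoters, rose from 29.2 and 36.7 CPM to 67.8, 58.4 and 56.7 CPM in heterozygous and 54.4, 55.1 and 52.1 CPM in homozygous hearts (log2 0.89 and 0.71) and passed under all 17 alternatives. The topoisomerase Top1mt was lower in homozygous hearts, at 5.07, 6.62 and 5.84 CPM beside 10.3 and 11.7 CPM in wild type (log2 -0.91), which was not kept without wild type 2 (-0.77, adjusted p = 0.0663) or after the correction (-0.46, adjusted p = 0.155). The number called in this list was 1 in each comparison without wild type 2, and 9 in homozygous and 6 in heterozygous hearts without wild type 1. It was 3 in homozygous hearts without homozygous 3.

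**Figure D4:**
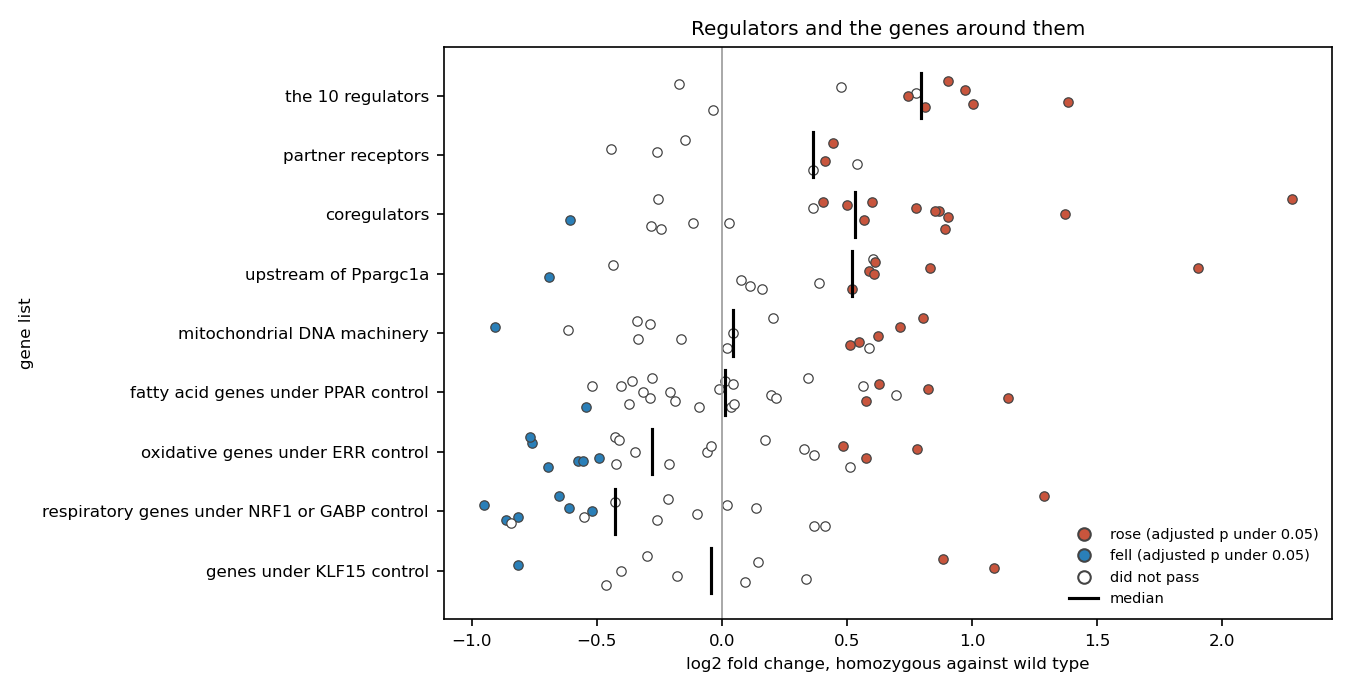
Log2 fold change in homozygous hearts against wild type of every tested gene in each pathway list, with 1 point per gene (red rose, blue fell, white did not pass) and a line at the list's median. The regulators (0.79), coregulators (0.53) and genes upstream of Ppargc1a (0.52) have medians to the right of 0, and the ERR target list (-0.28) and the NRF1 or GABP target list (-0.43) to the left.

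Among 10 genes under KLF15 control, 2 rose and 1 fell in each comparison, with a median log2 of -0.04 in homozygous and -0.23 in heterozygous hearts. Aldh6a1, an enzyme of valine breakdown, was at 169.8 and 128 CPM in wild type, 257, 251 and 239 CPM in heterozygous and 296, 257 and 272 CPM in homozygous hearts (log2 0.74 and 0.88). Bckdha, a subunit of the branched-chain ketoacid dehydrogenase, went the other way, from 422 and 541 CPM to 220.5, 215 and 237 CPM and 271, 240.2 and 309.8 CPM (log2 -1.10 and -0.82). After the correction the rise of Aldh6a1 passed in homozygous hearts (0.58) and not in heterozygous hearts (0.40, adjusted p = 0.0685), and the fall of Bckdha passed in heterozygous hearts (-0.61) and not in homozygous hearts (-0.33, adjusted p = 0.156). Without wild type 1 the number called was 6 in heterozygous hearts.

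Klf15 and Ppargc1a are known to follow the clock, glucocorticoids and feeding. Clock genes and glucocorticoid response genes are given beside them, and no list of feeding genes was counted. Hour of dissection and feeding are not in the labels. Pdk4, of the PPAR list, did not pass the test. It was at 1805 and 509 CPM in wild type, 3527, 951 and 1877 CPM in heterozygous and 2501, 1156.5 and 1965 CPM in homozygous hearts. In each genotype its highest library was replicate 1, the lowest for Ppargc1a. Not every gene of that list had this order, and its cause was not tested. Of 15 clock genes, 2 rose and 3 fell in homozygous hearts (median log2 -0.07), and 1 rose and none fell in heterozygous hearts (median -0.06). Clock itself was at 56.3 and 53.3 CPM in wild type and at 99.4 to 128 CPM in the 6 deletion hearts (log2 1.14 and 1.01, and 0.28 and 0.17 after the correction, where neither passed, with adjusted p = 0.166 and 0.393). Per1, an output of both the clock and glucocorticoids, was at 177 and 212 CPM in wild type, 131 to 171 CPM in heterozygous and 109 to 141 CPM in homozygous hearts (log2 -0.38 and -0.65). Its homozygous fall did not pass without wild type 2 (-0.48, adjusted p = 0.0906) or after the correction (-0.50, adjusted p = 0.0552).

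Of 8 glucocorticoid response genes, 2 rose and 2 fell in homozygous hearts (median log2 -0.56), and 2 rose and none fell in heterozygous hearts (median -0.16). The transcription factor Klf9, a relative of Klf15, was at 125 and 96.8 CPM in wild type, 267, 276 and 276 CPM in heterozygous and 268 to 295 CPM in homozygous hearts (log2 1.30 and 1.32). Zbtb16, a zinc finger gene induced by glucocorticoids, was at 189.8 and 69.0 CPM in wild type, and like Klf15 it was lower in wild type 2 than in wild type 1. It was at 381 to 443.7 CPM in heterozygous and 434 to 459 CPM in homozygous hearts (log2 1.68 and 1.78). Against wild type 2 alone its differences were log2 2.6 and 2.69, and against wild type 1 alone they were 1.16 and 1.26. Klf9 and Zbtb16 passed under all 17 alternatives in both comparisons. In homozygous hearts only these 2 of the 8 had a log2 difference above 0. Fkbp5 (log2 0.18 and -0.19) and Tsc22d3 (log2 -0.27 and -0.48) did not pass in either comparison. The falls in homozygous hearts were those of Per1 and Cdkn1a (log2 -1.07, adjusted p = 0.0105).

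Brown fat is rich in Ppargc1a, Esrrg and Ppara, and can be taken along with a heart. Of 6 brown fat markers, 4 had counts enough to be tested, 2 fell and none rose in each comparison. Their summed level was 583.8 and 1296 CPM in wild type, 438.6 to 645.5 CPM in heterozygous and 503.3 to 632.4 CPM in homozygous hearts. It was highest in wild type 2 and overlapped otherwise. Elovl3, also tested, was at 0.424 and 0.52 CPM in wild type and 0 to 0.59 CPM in the deletion hearts. Most of this sum is Cox8b, at 542 and 1214 CPM in wild type and 413 to 609 CPM in the deletion hearts. Whether this Cox8b RNA came from brown fat or from heart muscle was not tested, so the sum is not a measure of brown fat. Cox8b did not pass the test (adjusted p = 0.0615 in heterozygous and 0.0966 in homozygous hearts). The 2 that fell were Cidea, at 36.7 and 75.6 CPM in wild type and 23.2 to 33.6 CPM in the deletion hearts, and Dio2, at 4.32 and 6.03 CPM and 1.68 to 2.6 CPM.

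Some markers of other cell types were also lower in deletion hearts. White fat markers summed to 935.3 and 1296 CPM in wild type and 611.3 to 1072 CPM in the deletion hearts, but most of this sum is Fabp4, at 933 and 1271 CPM in wild type, a gene that endothelial cells express too. Cfd, the adipocyte protease adipsin, was at 1.08 and 11.1 CPM in wild type and at 0 to 0.305 CPM in the deletion hearts, and its fall passed in both comparisons (adjusted p = 0.00851 and 0.0119). Atrial markers summed to 373.5 and 618.2 CPM in wild type and 135.2 to 462.8 CPM in the deletion hearts, a sum made mostly of Nppa, which did not pass. Of 8 atrial markers tested 4 fell and 1 rose in each comparison. The atrial light chain Myl7 was at 6.59 and 14.2 CPM in wild type and 0.177 to 0.684 CPM in the deletion hearts, Myl4 at 11.1 and 22.8 CPM and 0.915 to 3.13 CPM, Dkk3 at 24.1 and 27.1 CPM and 2.18 to 4.84 CPM, and Sln at 2.93 and 5.27 CPM and 0 to 0.105 CPM. Beside these, the ventricular light chain Myl2 was at 9128 and 19551 CPM in wild type and 6574 to 8271 CPM in the deletion hearts. The RNA of the atrial light chains was thus low in every library, and lower in the deletion hearts. How much atrial tissue each sample held was not tested. Of 8 smooth muscle and pericyte markers 5 fell in heterozygous and 3 in homozygous hearts. In each comparison 1 rose, Abcc9 (log2 0.87 and 1.06). The summed level of the 8 overlapped, at 1485 and 1748 CPM in wild type, 1493 to 1825 CPM in heterozygous and 1510 to 1659 CPM in homozygous hearts. Its largest part was Rgs5, at 644 and 888 CPM in wild type, which did not pass. Among the markers that fell, the smooth muscle myosin Myh11 was at 70.3 and 162 CPM in wild type and 18.8 to 37.0 CPM in the deletion hearts. Tagln was at log2 -1.76 and -2.25 and Cnn1 at log2 -3.93 and -3.51. Of 10 endothelial markers 3 fell and 1 rose in heterozygous hearts, and 4 fell in homozygous hearts. Egfl7 fell in both (log2 -0.94 and -0.96), and the heterozygous rise was that of Flt1 (log2 0.43). Of 8 fibroblast markers 1 fell, in homozygous hearts, and of 8 macrophage markers 3 rose and 1 fell in heterozygous and 2 rose and 2 fell in homozygous hearts. The calls of the cell type markers were not followed without wild type 2. The part of these cells in the regulators' values was not tested.

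The genes whose pattern over the 8 libraries lay nearest to a regulator's were found by the root mean square distance of centred log2 CPM among 13109 genes. For Esrrg these were Larp4 (distance 0.0543) and Bdp1 (0.0592), beside a median distance of 0.665. Larp4, a binder of poly(A) RNA, was at 45 and 45.2 CPM in wild type and 97.3 to 125 CPM in the deletion hearts. For Esrra they were Ccdc97 (0.0338) and Ubap1 (0.052), beside a median of 0.313. For Ppara they were Sox6 (0.104) and Med14 (0.108), beside 0.542. Sox6, a transcription factor of muscle fibre type, was at 21.1 and 17.8 CPM in wild type, 32.4 to 44.7 CPM in heterozygous and 34.4 to 38.7 CPM in homozygous hearts, and like Ppara it had its lowest deletion value in heterozygous 1. For Klf15 they were Scaf4 (0.0425) and Agtpbp1 (0.0562), beside 0.407. Ppargc1a had no gene so near: the nearest were Dusp18 (0.242) and Dcaf12l1 (0.275), beside 0.741.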

How the data were processed

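RNA from hearts of 8 mice was extracted with Trizol, made into TruSeq libraries and sequenced, per the labels' protocols. The deposited values are raw, not normalized read counts per gene symbol. The submitters' processing notes name Trimmomatic 0.36, HISAT2, Subread with featureCounts, and DESeq2, and the build mm10. Which annotation and strand setting were used, and how multi-mapping reads were counted, is not given in the sources here. Gene positions, GC content and lengths of transcripts and 3′ UTRs came from GENCODE vM21, in which 96.9% of symbols were found, and promoter sequences from RefSeq (GRCm38.p6).

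Counts were analysed in R 4.3.3 with edgeR 4.0.16. Genes were kept by filterByExpr on genotype (15075, 61.5% of the table), which all 10 regulators passed, and TMM factors were used. A single robust quasi-likelihood fit on genotype held all 8 libraries, so the spread rests mostly on the deletion libraries. The 3 pairwise comparisons used the two-sided F test. P-values were adjusted by Benjamini-Hochberg over the 15075 genes, and 0.05 was the threshold. Intervals are 95% intervals of the fit. P-values measure only the spread between these hearts.

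The members and lists were chosen with earlier results of these data known. Named genes are the 10 regulators, Actn2, list genes by smallest p in homozygous against wild type (up to 4 were allowed; the first 2 of each list are named, a limit set by rank after values were seen), and the 2 genes nearest in pattern to each of 5 regulators (mean at least 1 CPM, prior count 2). Atp5j was named for its position. Sdhd, Pdk4, Fkbp5, Tsc22d3, Cdkn1a and the marker genes were named after their values were seen. The 17 alternatives were DESeq2 size factors, total counts, no filter, DESeq2 1.42.0, limma-voom (limma 3.58.1), a fit on the libraries of the compared genotypes alone, a block for the replicate number, a correction for gene properties (splines with 4 df each on log2 transcript length, log2 3′ UTR length and GC content, taken off as offsets), that correction without wild type 2, and each library left out. The distances of the nearest genes under other scalings were added after the data were seen. The fits were tested on simulated data.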

Additional observations from a re-analysis of the deposited data

How the results depend on the processing

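Against wild type, Esrrb and Esrrg kept their direction and call under all 17 alternatives. The number of regulators called was 4 to 7 in homozygous and 5 to 7 in heterozygous hearts when 1 library was left out, and 3 in each with the gene property correction and without wild type 2 together. Over all genes that combination called 739 and 684, beside 4180 and 4219, and leaving out wild type 2 alone called 2135 and 2359. Between the deletion genotypes none of the regulators or of the genes in the 8 pathway lists was called when any 1 library was left out (0 to 0 in each). With 1 library left out, the counts in homozygous and then heterozygous hearts ran 0 to 3 and 0 to 2 for partner receptors, 8 to 12 and 10 to 12 for coregulators, and 6 to 10 and 5 to 8 for genes upstream of Ppargc1a. They ran 1 to 9 and 1 to 6 for mitochondrial DNA machinery, 3 to 9 and 3 to 11 for fatty acid genes, 2 to 15 and 4 to 15 for ERR targets, 2 to 13 and 2 to 13 for NRF1 or GABP targets, and 3 to 4 and 2 to 6 for KLF15 targets.

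With the gene property correction the counts called were 5 and 3 coregulators, 2 and 2 genes upstream of Ppargc1a, 3 and 1 ERR targets, 2 and 3 NRF1 or GABP targets, and 2 fatty acid genes in heterozygous hearts. With the correction and without wild type 2 they were 0 and 0 partner receptors, 2 and 2 coregulators, 1 and 2 upstream genes, 1 and 1 of the mitochondrial DNA machinery, 0 and 0 fatty acid genes, 1 and 0 ERR targets, 1 and 1 NRF1 or GABP targets, and 1 and 0 KLF15 targets. With only the groups compared they were 1 and 0 partner receptors and 5 and 5 ERR targets, 3 fatty acid genes in homozygous hearts, and in heterozygous hearts 4 upstream genes, 1 of the mitochondrial DNA machinery and 5 NRF1 or GABP targets. DESeq2 called 11 NRF1 or GABP targets in homozygous hearts. With the replicate number as a block, 0 and 0 partner receptors and 5 NRF1 or GABP targets in heterozygous hearts were called, and 6 regulators in each comparison as without it. Same-numbered heterozygous and homozygous libraries deviated from their group means with correlations of 0.177, 0.138 and -0.0228. Differently numbered ones ran from -0.225 to 0.135, so 0.177 and 0.138 were the highest, while heterozygous 3 and homozygous 3 did not correlate best with each other. The labels name no pairing, and the numbers were not taken to pair the samples. Whether they mark a shared condition was not tested.

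The following log2 differences changed sign. In this section, unlike above, the homozygous value of a pair comes before the heterozygous one. With the correction Esrra was at 0.39 in homozygous and 0.31 in heterozygous hearts, Thrb at -0.11 and -0.10, Cox6a1 at 0.11 and 0.19, and Top1mt at 0.055 in heterozygous hearts. With the correction and without wild type 2 Esrra was at 0.54 and 0.46, Actn2 at 0.021 in homozygous hearts, and Top1mt at 0.079 and Per1 at 0.0062 in heterozygous hearts. With 1 library left out, Esrra ran from -0.17 to 0.15 in homozygous and -0.29 to 0.025 in heterozygous hearts, Nrf1 from -0.33 to 0.057 and -0.36 to 0.030, and Rxra from -0.0063 to 0.17 in heterozygous hearts. Between the deletion genotypes, where no regulator was called, Esrrb ran from -0.045 to 0.094, Esrrg from -0.11 to 0.057, Gabpa from -0.011 to 0.12, Klf15 from -0.022 to 0.10, Nrf1 from -0.045 to 0.13, Ppara from -0.32 to 0.020 and Ppargc1a from -0.65 to 0.16. There Esrrb was at -0.0052 with total counts and at -0.021 with the correction, with or without wild type 2, and Esrrg was at 0.011 with wild type 2 and 0.0061 without it. The cause of these changes was not tested.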
